A study of Mus musculus with 12 samples.

Results

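The transcripts described here encode 10 proteins that macrophages release into, or use to remodel, the extracellular matrix. They were chosen by gene name from the 54532 genes of the deposited tables: Fn1, Tgfbi, Emilin2 and Ecm1, the matrix glycoproteins; Spp1, Thbs1 and Sparc, the matricellular proteins; Gpnmb, a membrane glycoprotein with a shed ectodomain; and Tgm2 and Plau, the enzymes that crosslink and clear matrix. Macrophages were grown in medium with fetal bovine serum and CSF-1 from the bone marrow of wild-type mice of the C57BL/6J strain, 2 to 3 months old. The labels name tibial marrow only, and the study's methods name the femur as well. Adherent cells were moved either to ordinary dishes or to dishes coated with fibronectin at 10 µg/ml, and were grown until confluent. They were then kept for 24 h with 10 µg/ml of a neutralizing antibody against integrin α5 (anti-ITGA5) or with 10 µg/ml of control IgG. Each antibody was used on each surface, and each of these 4 groups had 3 RNA-seq libraries of poly(A) RNA. The names with and without fibronectin refer to the coating only. The study describes its replicates as independent experiments, and the labels do not say which animals or culture days they came from, so the p-values measure the spread between these libraries. The antibody blocks the protein from outside and leaves the gene intact, and the coating is added protein, so Fn1 reads measure only what the cells transcribed.

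Structural matrix proteins such as fibronectin build the fibrils that cells hold on to, whereas matricellular proteins such as osteopontin and thrombospondin-1 are released into that scaffold and act on cells through surface receptors. Integrin α5 pairs with integrin β1 to form the main fibronectin receptor, which recognizes an arginine-glycine-aspartate run. Other integrins, CD44 and CD47 receive matricellular ligands, and the study cites proposals that osteopontin and the Sparc protein also interact with the α5 and β1 pair. In healing tissue, macrophages are a source of several of these proteins and of the proteases and transglutaminases that reshape the matrix.

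The integrin recognition run is shown for the members that carry it, since the blocked integrin is a receptor of that run. In the longest coding sequence that GENCODE M21 gives each gene, an in-frame run of arginine, glycine and aspartate codons was found in 5 of the 10 members, against 1561 of 21506 protein-coding genes (7.26%). This is a description of the sequences, and a codon run does not show that the protein binds an integrin. Each line gives the 9 bases of the run in capitals, with 12 bases on either side, 5′ to 3′ on the coding strand.
Fn1, codon 1614: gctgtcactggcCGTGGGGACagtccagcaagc
Spp1, codon 145: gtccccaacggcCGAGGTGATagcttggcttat
Thbs1, codon 927: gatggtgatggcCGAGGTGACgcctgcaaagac
Tgfbi, codon 642: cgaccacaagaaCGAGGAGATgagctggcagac
Gpnmb, codon 64: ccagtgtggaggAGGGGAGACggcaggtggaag
On GRCm38 the runs lie in exon 30 of 46 of Fn1 (chr1:71606746-71606754, minus strand), exon 7 of 8 of Spp1 (chr5:104439481-104439489, plus strand), exon 18 of 22 of Thbs1 (chr2:118122882-118122890, plus strand), exon 15 of 17 of Tgfbi (chr13:56637155-56637163, plus strand) and exon 2 of 11 of Gpnmb (chr6:49042886-49042894, plus strand). Fn1 and Gpnmb each held another run, at codons 2181 and 558. The window of Thbs1 joins neighbouring exons. Emilin2, Ecm1, Sparc, Tgm2 and Plau had none.

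Counts on genes ranged from 12954342 to 22075432 per library, and the members took 1.57% to 1.98% of the counts. The lowest total was in anti-ITGA5 without fibronectin replicate 2. That library also had the most genes with a count, 21123 against 19542 to 20426 in the others, and the highest TMM scaling factor, 1.043. Replicate pairs differed by a chi-square per gene of 10.4 to 23.0 in anti-ITGA5 without fibronectin and of 2.65 to 7.45 in the other groups. Macrophage markers were abundant in every library, with Lyz2 (lysozyme) at 7514 ± 429.9 FPKM (SD, n = 3) and Csf1r (the CSF-1 receptor) at 322 ± 11.7 FPKM (SD, n = 3) in IgG without fibronectin. FPKM is the count divided by gene length and by a total of the library. The summed level of 10 fibroblast markers was 0.236 to 0.514 FPKM over the 12 libraries, with Pdgfra, Dcn, Lum, Thy1 and Twist1 at 0 to 5 counts in each. Neither Itga5 nor Itgb1 passed the test under the antibody. The log2 fold change of Itga5 was 0.15 (SE 0.0569, adjusted p = 0.0906) without and 0.07 (SE 0.0478, adjusted p = 0.273) with fibronectin by the edgeR quasi-likelihood test, and that of Itgb1 was -0.04 (SE 0.0506, adjusted p = 0.661) and -0.08 (SE 0.0372, adjusted p = 0.138). The antibody does not remove the transcript, so these values do not check its action.

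Levels per length differed widely among the members (the plot of levels on a log axis). Spp1, at 1678 to 2174 FPKM over the 12 libraries, and Gpnmb, at 1377 to 2076 FPKM, were ranks 11 and 12 among 22046 protein-coding genes in IgG without fibronectin. Plau followed at 592 to 944 FPKM, then Emilin2 at 87.3 to 129 FPKM, Tgm2 at 75.0 to 97.3 FPKM, Ecm1 at 30.9 to 53.6 FPKM, Thbs1 at 14.5 to 36.5 FPKM and Tgfbi at 14.1 to 20.9 FPKM. Fn1 stood at only 1.53 to 3.46 FPKM, and Sparc at 0.166 to 0.543 FPKM from 11 to 34 counts. The order was the same in all 12 libraries except for Thbs1 and Tgfbi, where Thbs1 was the higher in 9 of 12. The ranges of Spp1 and Gpnmb overlapped, although Spp1 was the higher in each of the 12 libraries, and so did those of Emilin2 and Tgm2 and of Ecm1 and Thbs1.

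**Figure D1:**
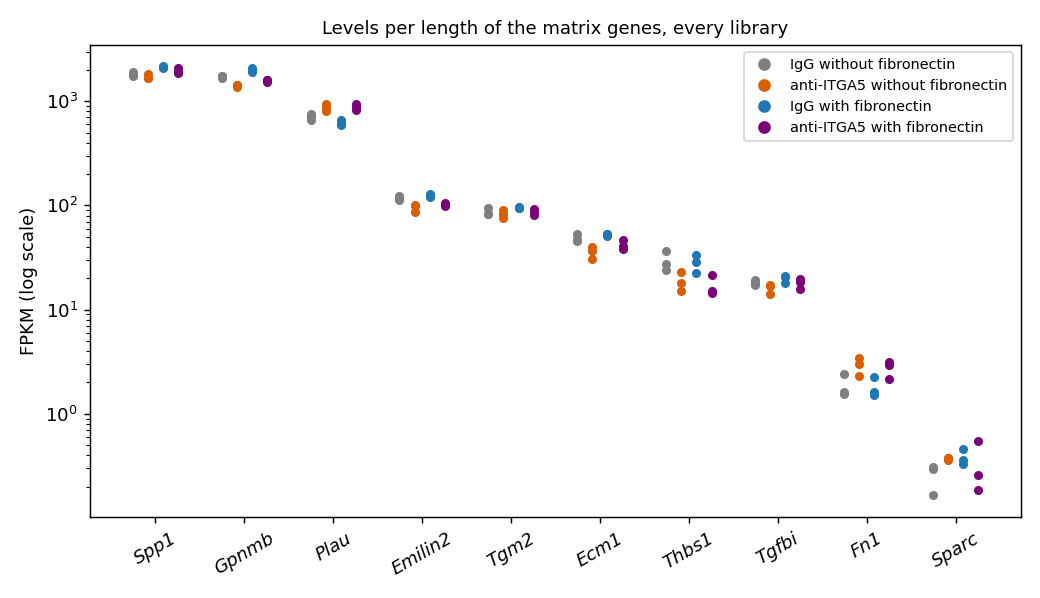
Levels of the 10 members in FPKM on a log axis, with 1 point for each of the 12 libraries, coloured by group. The members fall from Spp1, at 1678 to 2174 FPKM, to Sparc, at 0.166 to 0.543 FPKM, and the libraries of neighbours such as Spp1 and Gpnmb overlap.

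Under ITGA5 neutralization without fibronectin, 4 members fell (Emilin2, Ecm1, Thbs1 and Gpnmb), 2 rose (Fn1 and Plau) and 4 did not pass the test (Tgfbi, Spp1, Sparc and Tgm2). Among the 12924 genes tested, 9.79% were called lower and 11% higher. With fibronectin, 6 members fell (the same 4 with Spp1 and Tgm2) and Fn1 and Plau rose, whereas Tgfbi and Sparc did not pass. Among the 12916 genes tested there, 13.2% were called lower and 14.4% higher. The libraries of the 2 groups did not overlap for 7 of 10 members without and 7 of 10 with fibronectin, against 38.2% and 42.4% of all tested genes. The median log2 fold change of the 10 members was -0.12 without and -0.20 with fibronectin, against 0.0090 and -0.0038 over all tested genes. All 10 members passed the filter on low counts in every comparison. Calls were made at an adjusted p no higher than 0.05. RNA was measured in bulk, so fewer cells making a transcript and less of it per cell cannot be told apart.

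**Figure D2:**
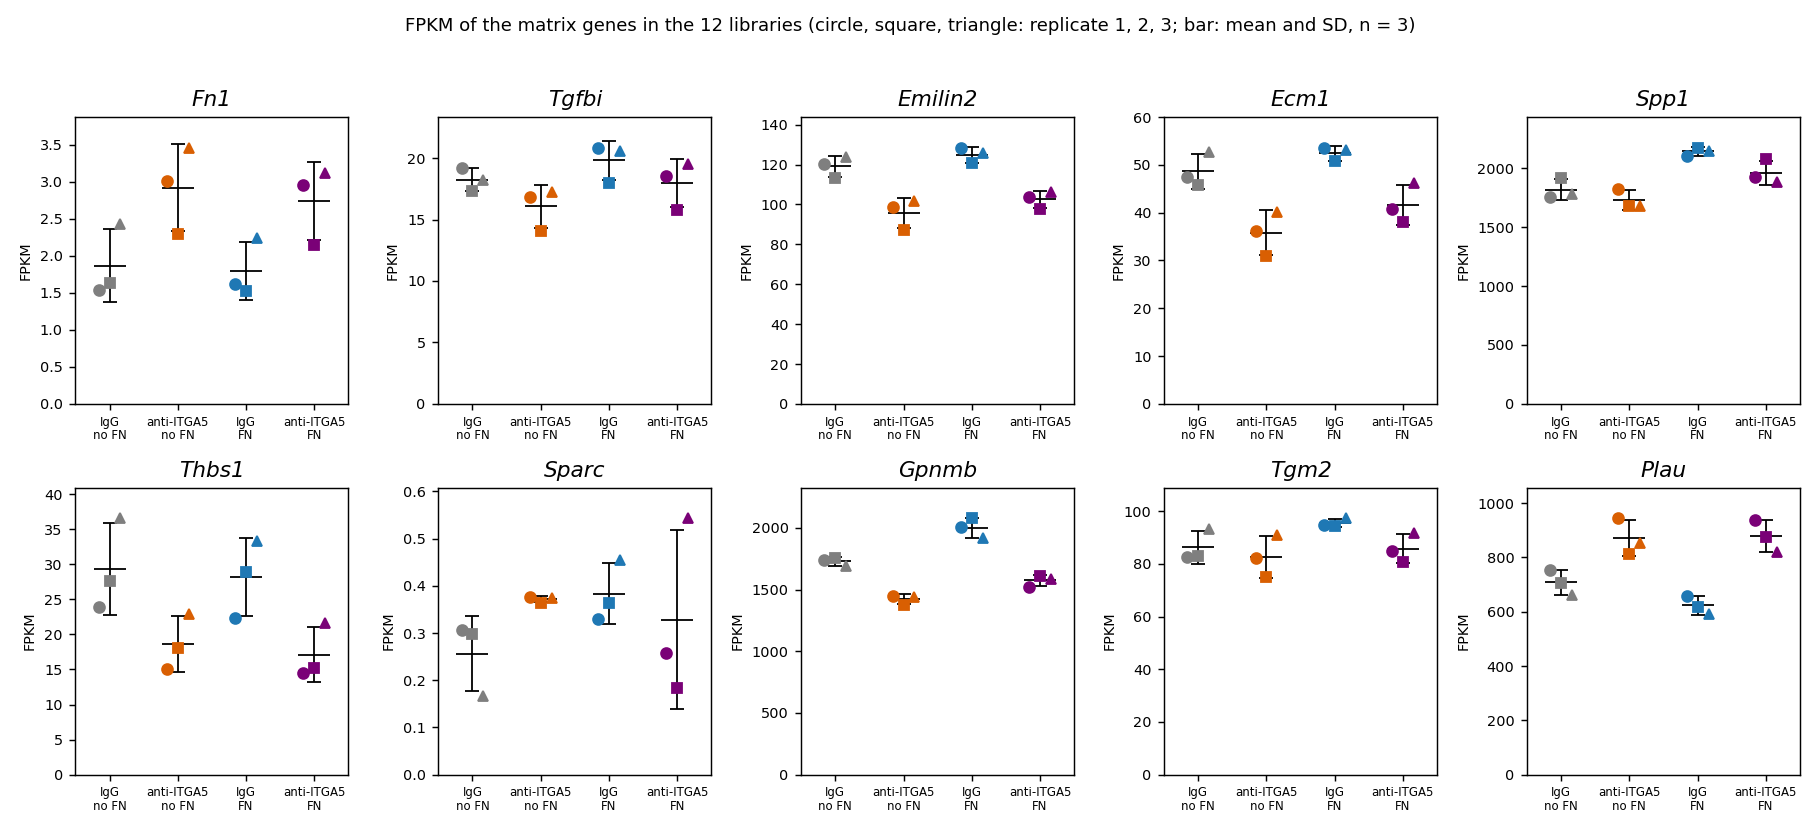
FPKM (vertical axis, from 0) of each member in the 4 groups, 1 panel a member, with circles, squares and triangles for replicates 1, 2 and 3 and bars for the mean and SD (n = 3). The anti-ITGA5 libraries of Thbs1, Ecm1, Emilin2 and Gpnmb lie below the IgG libraries on the same coating and those of Plau lie above, while those of Fn1 overlap.

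Among the structural glycoproteins, Emilin2 and Ecm1 fell on both surfaces, Fn1 rose on both, and Tgfbi passed on neither. Emilin2 (ENSMUSG00000024053, chr17:71252172-71311978, minus strand) encodes a glycoprotein of elastic microfibrils. Its FPKM in replicates 1, 2 and 3 were 120.4, 113 and 124 in IgG and 98.6, 87.3 and 102 upon neutralization without fibronectin. With fibronectin they were 128, 121 and 126 in IgG and 104, 97.8 and 106 upon neutralization. All anti-ITGA5 libraries lay below all IgG libraries on the same surface, and replicate 2 was the lowest of each group. The log2 fold change was -0.31 (SE 0.0626, adjusted p = 0.00591) without and -0.29 (SE 0.0426, adjusted p = 3.6e-04) with fibronectin by edgeR's quasi-likelihood test. The counts behind these values were 11451, 11033 and 11931 against 9527, 6618 and 11458 without and 13021, 14466 and 12817 against 11080, 10018 and 9675 with fibronectin, IgG first. Both calls held with each library left out in turn, and limma on unfiltered log2 FPKM lost the one without fibronectin (adjusted p = 0.0716).

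Ecm1 (ENSMUSG00000028108, chr3:95734147-95739569, minus strand) encodes a secreted glycoprotein that binds other matrix components. Without fibronectin its FPKM were 47.4, 45.7 and 52.8 in IgG and 36.2, 30.9 and 40.2 in anti-ITGA5. On the coating the values were 53.6, 50.7 and 53.0 in IgG and 40.7, 38.0 and 46.2 in anti-ITGA5. Again no anti-ITGA5 library reached the lowest IgG library of its surface, and replicate 2 was the lowest of each group. The log2 fold change was -0.43 (SE 0.087, adjusted p = 0.00553) without and -0.33 (SE 0.0633, adjusted p = 0.00187) with fibronectin by edgeR. Counts were 2064, 2038 and 2333 against 1601, 1073 and 2081 without and 2487, 2783 and 2480 against 1991, 1785 and 1928 with fibronectin. Both calls held with each library left out in turn and were lost by limma on unfiltered log2 FPKM (adjusted p = 0.0927 and 0.054).

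Fn1 (ENSMUSG00000026193, chr1:71585520-71653200, minus strand) encodes fibronectin, the ligand of the blocked receptor and the protein of the coating. The cells made little of its transcript, on uncoated dishes 1.87 ± 0.491 FPKM in IgG and 2.92 ± 0.591 FPKM upon neutralization (mean ± SD, n = 3 each). By library, in the order of replicates 1 to 3, these were 1.53, 1.64 and 2.43 in IgG and 3.01, 2.29 and 3.46 in anti-ITGA5. On the coating, its FPKM were 1.62, 1.52 and 2.24 in IgG and 2.96, 2.14 and 3.12 in anti-ITGA5. Groups overlapped on both surfaces, since replicate 3 of IgG exceeded replicate 2 of anti-ITGA5 in each. Between libraries of the same replicate number, the anti-ITGA5 value was always the higher on both surfaces. Replicate 3 was the highest of all 4 groups for Fn1, and the labels do not say what a replicate number shares. Fn1 rose by 0.66 (SE 0.175, adjusted p = 0.0227) on the log2 scale without and 0.61 (SE 0.152, adjusted p = 0.0101) with fibronectin by edgeR, from counts of 310, 338 and 498 against 618, 368 and 829 and of 348, 388 and 485 against 671, 465 and 603. The call without fibronectin was lost without IgG replicate 1 (adjusted p = 0.117), IgG replicate 2 (0.11), anti-ITGA5 replicate 1 (0.0667) or anti-ITGA5 replicate 3 (0.0698). With fibronectin it was lost without IgG replicate 1 (adjusted p = 0.0573) or anti-ITGA5 replicate 1 (0.0531), and limma on log2 FPKM called Fn1 on neither surface (adjusted p of 0.102, 0.094 and, unfiltered, 0.26 without fibronectin, and 0.0709, 0.0692 and, unfiltered, 0.191 with it). The log2 fold change stayed between 0.50 and 0.89 over all left-out libraries. An edgeR fit with the replicate number as a block gave an adjusted p of 0.00126 without and 2.8e-07 with fibronectin.

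Tgfbi (ENSMUSG00000035493, chr13:56609523-56639562, plus strand) encodes an adhesive protein of the matrix that is induced by TGF-β. Its level was 18.2 ± 0.958 FPKM in IgG and 16.1 ± 1.73 FPKM in anti-ITGA5 without fibronectin, and 19.8 ± 1.58 and 17.96 ± 1.96 FPKM with it (SD, n = 3 each). The log2 fold change was -0.17 (SE 0.0754, adjusted p = 0.132) without and -0.14 (SE 0.0789, adjusted p = 0.203) with fibronectin by edgeR, with 95% intervals of -0.34 to -0.0075 and -0.31 to 0.03. Without fibronectin every anti-ITGA5 library lay below every IgG library in FPKM, by as little as 17.28 against 17.32, and with fibronectin the groups overlapped. With anti-ITGA5 replicate 3 left out, Tgfbi passed on the coating (log2 fold change -0.20, adjusted p = 0.0483), whereas without anti-ITGA5 replicate 2 the log2 fold change was -0.057 (adjusted p = 0.613). Over the left-out libraries it ranged from -0.21 to -0.057 there and, with no call, from -0.23 to -0.097 without fibronectin.

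Of the matricellular members, Thbs1 fell by the largest log2 amount of the 10 on both surfaces, Spp1 fell on fibronectin, and Sparc passed on neither. Thbs1 (ENSMUSG00000040152, chr2:118111876-118127133, plus strand) encodes thrombospondin-1, a ligand of CD36 and CD47 that restrains new vessel growth. Without fibronectin its FPKM were 23.9, 27.6 and 36.5 in the IgG libraries and 15.0, 18.03 and 22.9 in the anti-ITGA5 libraries. With fibronectin the FPKM were 22.3, 28.9 and 33.3 and 14.5, 15.2 and 21.6. In each of the 4 groups replicate 1 was the lowest and replicate 3 the highest, and the groups still did not overlap on either surface. The coefficient of variation within a group was 19.7% to 22.8%, against 2.04% to 4.07% for Gpnmb. Its log2 fold change was -0.65 (SE 0.163, adjusted p = 0.0182) without and -0.73 (SE 0.147, adjusted p = 0.00297) with fibronectin by edgeR, from counts of 2506, 2962 and 3890 against 1603, 1508 and 2854 and of 2490, 3824 and 3747 against 1707, 1720 and 2166. Without fibronectin the call was lost without IgG replicate 2 (adjusted p = 0.0538), IgG replicate 3 (0.0895) or anti-ITGA5 replicate 1 (0.0666), by DESeq2 (0.0616) and by limma on log2 FPKM (0.0709, 0.0663 and, unfiltered, 0.19). With fibronectin it held with each library left out in turn and was lost by limma on unfiltered log2 FPKM (adjusted p = 0.11). Both calls held in an edgeR fit with the replicate number as a block (adjusted p = 2.2e-05 without and 1.6e-13 with fibronectin). The log2 fold changes stayed at -0.65 and -0.73 in that fit, and the labels do not say what a replicate number shares.

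Spp1 (ENSMUSG00000029304, chr5:104435118-104441050, plus strand) encodes osteopontin, a secreted phosphoprotein bound by αv integrins and CD44. Its FPKM were 1757, 1918 and 1777 in IgG and 1827, 1678 and 1679 upon neutralization without fibronectin. With fibronectin they were 2104, 2174 and 2149 and 1928, 2076 and 1883. The groups overlapped without fibronectin, and on the coating every anti-ITGA5 library lay below every IgG library. Upon neutralization the log2 fold change of Spp1 was -0.07 (SE 0.0529, adjusted p = 0.416) without and -0.13 (SE 0.042, adjusted p = 0.0386) with fibronectin by edgeR, from counts of 50028, 55894 and 51326 against 52831, 38093 and 56770 and of 63820, 77982 and 65686 against 61663, 63669 and 51315. The fall on fibronectin was small and lost its call without IgG replicate 1, 2 or 3 (adjusted p = 0.0617, 0.0745 and 0.0791) and without anti-ITGA5 replicate 1 or 3 (0.147 and 0.0808). Scaling by total counts in place of TMM also ended it (log2 fold change -0.09, adjusted p = 0.139), as did 1 fit of all 12 libraries (adjusted p = 0.058) and limma on log2 FPKM (0.0826, 0.0796 and, unfiltered, 0.595).

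Sparc (ENSMUSG00000018593, chr11:55394500-55423183, minus strand), the collagen-binding protein osteonectin, was close to the limit of detection. Its FPKM were 0.306, 0.298 and 0.166 in IgG and 0.376, 0.364 and 0.373 in anti-ITGA5 without fibronectin, and 0.33, 0.364 and 0.456 and 0.258, 0.184 and 0.543 with it. Without fibronectin every anti-ITGA5 library lay above every IgG library, and with it the groups overlapped. The 95% interval of the log2 fold change was -0.20 to 1.27 without and -1.03 to 0.54 with fibronectin, and both intervals include 0.

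Gpnmb fell and Plau rose on both surfaces, while Tgm2 fell on fibronectin. Gpnmb (ENSMUSG00000029816, chr6:49036546-49070929, plus strand) encodes a transmembrane glycoprotein of phagocytes whose outer part is shed and can bind integrins. Its FPKM were 1738, 1757 and 1689 in IgG and 1446, 1377 and 1442 in anti-ITGA5 without fibronectin. With fibronectin they were 2008, 2076 and 1914 and 1524, 1609 and 1589. No library of 1 antibody fell within the range of the other on either surface. Gpnmb fell, with log2 fold changes of -0.28 (SE 0.0361, adjusted p = 4.4e-04) without and -0.35 (SE 0.0407, adjusted p = 6.0e-05) with fibronectin by edgeR, from counts of 195669, 202405 and 192810 against 165274, 123565 and 192726 and of 240758, 294434 and 231235 against 192747, 195101 and 171205. Leaving out each library in turn ended neither call, whereas limma on unfiltered log2 FPKM ended both (adjusted p = 0.649 without and 0.0889 with fibronectin).

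Tgm2 (ENSMUSG00000037820, chr2:158116402-158146436, minus strand) encodes transglutaminase 2, which crosslinks matrix proteins and also binds fibronectin at the cell surface. Its FPKM were 82.6, 82.9 and 93.5 in IgG and 82.2, 75.0 and 90.8 in anti-ITGA5 without fibronectin, where the groups overlapped. With fibronectin they were 94.8, 94.3 and 97.3 in IgG and 84.8, 80.8 and 91.8 in anti-ITGA5, where they did not. The log2 fold change was -0.06 (SE 0.0739, adjusted p = 0.638) and -0.16 (SE 0.0472, adjusted p = 0.0272) by edgeR, from counts of 6580, 6758 and 7550 against 6650, 4759 and 8589 and of 8043, 9457 and 8314 against 7581, 6934 and 6993. On the coating the call was lost without IgG replicate 1 (adjusted p = 0.0712), IgG replicate 3 (0.0899), anti-ITGA5 replicate 1 (0.103) or anti-ITGA5 replicate 2 (0.101), and with total counts in place of TMM (0.0851). It was also lost in 1 fit of all 12 libraries (adjusted p = 0.104) and by limma on log2 FPKM (0.0636, 0.0636 and, unfiltered, 0.14).

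Plau (ENSMUSG00000021822, chr14:20836660-20843385, plus strand) encodes urokinase, the protease that turns plasminogen into plasmin. In IgG without fibronectin its FPKM were 754, 707 and 663, and upon neutralization 944, 814 and 855. With fibronectin they were 658, 618 and 592 and 937, 876 and 819. Every anti-ITGA5 library exceeded every IgG library on its surface, and replicate 1 was the highest of each group. Plau rose by 0.30 (SE 0.0639, adjusted p = 0.00728) on the log2 scale without and 0.49 (SE 0.0519, adjusted p = 2.7e-05) with fibronectin by edgeR, from counts of 30830, 29588 and 27510 against 39183, 26533 and 41498 and of 28665, 31873 and 25985 against 43051, 38586 and 32049. Without fibronectin the call was lost by limma on log2 FPKM (adjusted p = 0.0565, 0.0574 and, unfiltered, 0.369). Both calls held with each library left out in turn, with log2 fold changes of 0.25 to 0.35 and 0.44 to 0.54.

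**Figure D3:**
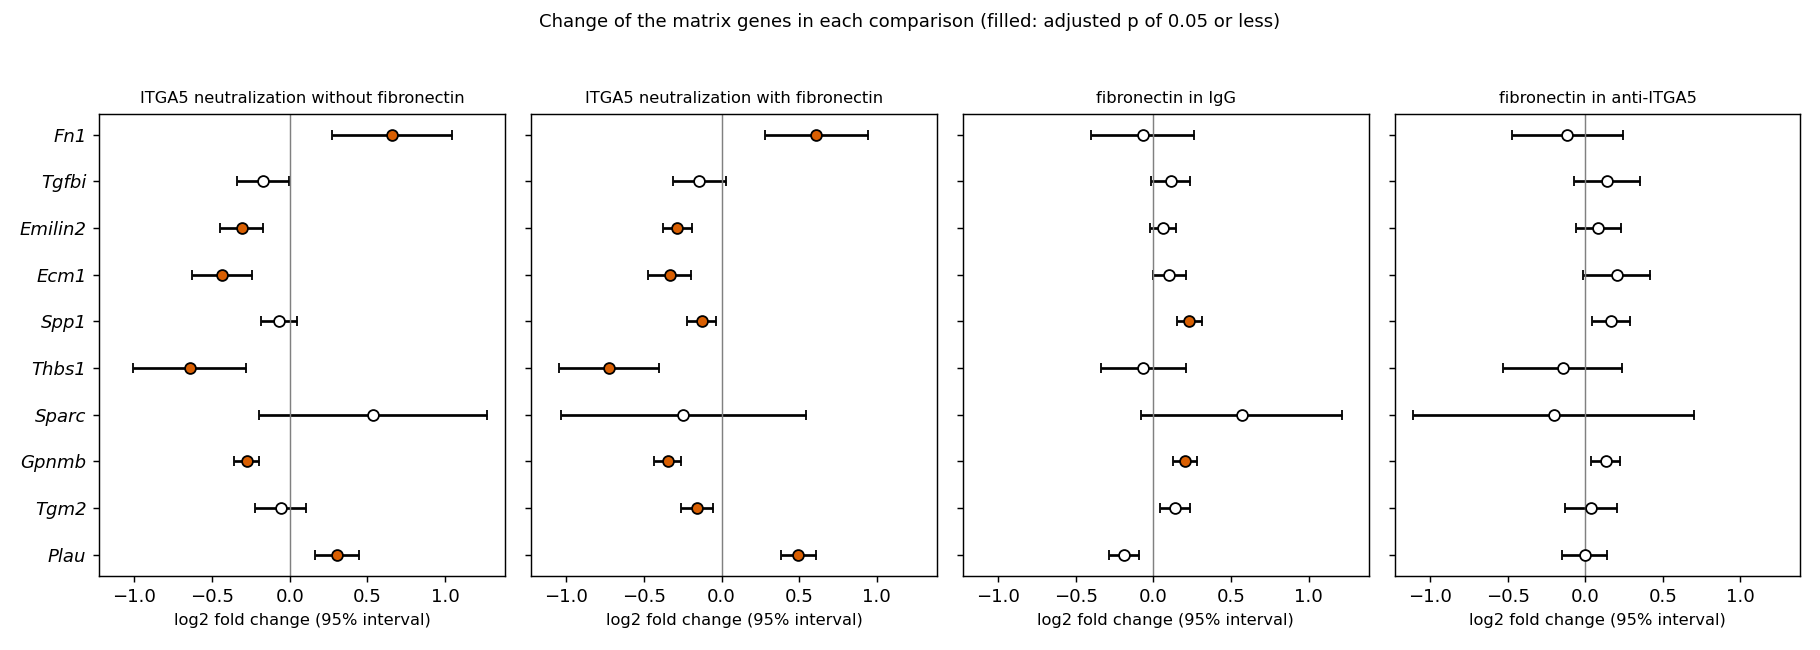
Log2 fold change (horizontal axis) of the 10 members in each of the 4 comparisons, with its 95% interval, filled where the adjusted p is 0.05 or less. Neutralization shifts Thbs1, Ecm1, Emilin2 and Gpnmb below 0 and Fn1 and Plau above 0 in both panels, and no member is filled for fibronectin in anti-ITGA5.

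The coating was compared with uncoated dishes under each antibody, using the same libraries as the antibody comparisons. In IgG, Spp1 and Gpnmb rose on fibronectin and no member fell, where 0.325% of the 12925 genes tested were called higher and 0.124% lower. By edgeR the log2 fold change was 0.23 (SE 0.038, adjusted p = 0.0118) for Spp1 and 0.21 (SE 0.0359, adjusted p = 0.0178) for Gpnmb, and in both every coated library exceeded every uncoated one. Each call was lost without replicate 1 of IgG without fibronectin (adjusted p = 0.204 for both) or replicate 1 of IgG with fibronectin (0.0577 for Spp1 and 0.123 for Gpnmb). Both were lost by limma on log2 FPKM (0.163, 0.164 and, unfiltered, 0.623 for Spp1, and 0.182, 0.175 and, unfiltered, 0.65 for Gpnmb), and that of Spp1 also in 1 fit of all 12 libraries (0.137). Plau, at -0.19 (SE 0.0463, adjusted p = 0.0958), and Tgm2, at 0.14 (SE 0.0452, adjusted p = 0.255), did not pass, although their libraries did not overlap either. Without replicate 3 of IgG without fibronectin both passed (adjusted p = 0.032 for Plau and 0.0263 for Tgm2), and DESeq2 called Plau lower (adjusted p = 0.00375). Libraries did not overlap for 5 of 10 members, against 15.4% of all tested genes, and the median log2 fold change was 0.11 for the members and -0.00062 for all genes.

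In anti-ITGA5, 0 members were called on fibronectin, as 0% of the 12863 genes tested were called higher and 0% lower by edgeR, 461 had an unadjusted p under 0.05, and DESeq2 called 5. Spp1 and Gpnmb had log2 fold changes of 0.17 (95% interval 0.05 to 0.29) and 0.13 (0.04 to 0.22), and were the 2 members whose libraries did not overlap, against 9.74% of all tested genes. Plau was at -0.0041 (-0.15 to 0.14). Whether the antibody effect differed between surfaces was tested with an interaction term over all 12 libraries. It called 0 of 10 members and 3 of 13455 genes (0.0223%) by edgeR, with 386 genes at an unadjusted p under 0.05 and 4 called by DESeq2. Every member had an adjusted p of 0.9997, and every 95% interval included 0. The interval was -0.0018 to 0.37 for Plau and -0.21 to 0.08 for Spp1, so calls made on 1 surface only, as for Spp1 and Tgm2, were not shown to differ between surfaces.

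The other genes of these systems were counted from lists that leave the members out. Of the structural matrix list, 20 of 50 genes were tested without fibronectin, with 3 lower and 1 higher, and 22 with fibronectin, with 4 lower and 1 higher. The median log2 fold change of the tested genes was -0.15 and -0.20. Vcan (versican, a large proteoglycan) fell, with log2 fold changes of -1.10 (SE 0.266, adjusted p = 0.0149) and -1.13 (SE 0.264, adjusted p = 0.00699), but stood at only 0.229 ± 0.0336 FPKM in IgG without fibronectin. Nid2, a basement membrane protein, rose by 0.69 (SE 0.0921, adjusted p = 5.0e-04) and 0.43 (SE 0.0942, adjusted p = 0.0049). Col18a1, the source of endostatin, changed by -0.45 (SE 0.11, adjusted p = 0.015) and -0.52 (SE 0.0753, adjusted p = 2.9e-04) with the antibody, and rose by 0.63 (SE 0.0754, adjusted p = 7.3e-04) on fibronectin in IgG. Agrn (agrin) fell without fibronectin, at -0.29 (SE 0.0711, adjusted p = 0.015), and did not pass with it, at -0.21 (SE 0.11, adjusted p = 0.188). Vwf (von Willebrand factor) fell with fibronectin, at -0.30 (SE 0.058, adjusted p = 0.002), and did not pass without it, at -0.04 (SE 0.0781, adjusted p = 0.771).

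Of the other matricellular genes, 10 were tested without fibronectin, with 1 lower, and 11 with fibronectin, with 2 lower and 1 higher (median log2 fold change -0.04 and -0.18). Galectin-9 (Lgals9) fell without fibronectin, at -0.43 (SE 0.0731, adjusted p = 0.00236), and did not pass with it, at -0.22 (SE 0.124, adjusted p = 0.212). Galectin-3 (Lgals3), at 1491 ± 86.3 FPKM in IgG without fibronectin, was at -0.20 (SE 0.0675, adjusted p = 0.0636) without and fell, at -0.29 (SE 0.0466, adjusted p = 5.5e-04) with fibronectin, and rose by 0.26 (SE 0.0454, adjusted p = 0.0178) with the coating in IgG. Galectin-1 (Lgals1) passed on neither surface, at 0.15 (SE 0.0731, adjusted p = 0.185) and 0.08 (SE 0.0428, adjusted p = 0.208). On fibronectin Fgl2 rose by 0.36 (SE 0.106, adjusted p = 0.0228), and without it Fgl2 was at 0.26 (SE 0.131, adjusted p = 0.195). Cyr61, from 3 to 17 counts a library, fell on fibronectin, at -1.17 (SE 0.371, adjusted p = 0.0338), and had too few counts to be tested without it. Of the crosslinking and processing genes, 13 were tested without fibronectin, with 3 lower and 0 higher, and 14 with it, with 5 lower and 0 higher (median -0.15 and -0.13). Crtap, a partner of collagen prolyl hydroxylation, changed by -0.43 (SE 0.0548, adjusted p = 4.0e-04) and -0.36 (SE 0.0436, adjusted p = 6.9e-05). The transglutaminase F13a1 changed by -0.76 (SE 0.0994, adjusted p = 4.4e-04) and -0.47 (SE 0.0779, adjusted p = 7.2e-04), and P4ha2 by -0.34 (SE 0.0929, adjusted p = 0.0257) and -0.44 (SE 0.0613, adjusted p = 2.2e-04). F13a1 also fell, at -0.32 (SE 0.0563, adjusted p = 0.0178) with fibronectin in IgG.

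In the plasminogen system, where Plau rose, 11 other genes were tested, with 3 lower without and 6 lower with fibronectin and 0 higher in either (median log2 fold change -0.13 and -0.18). The plasminogen-binding enolase Eno1 fell, at -0.37 (SE 0.0719, adjusted p = 0.00458) and -0.32 (SE 0.0469, adjusted p = 2.8e-04), Serpinb6a at -0.31 (SE 0.0641, adjusted p = 0.00702) and -0.22 (SE 0.0426, adjusted p = 0.00238), and the clearance receptor Lrp1 at -0.19 (SE 0.0464, adjusted p = 0.0161) and -0.22 (SE 0.0442, adjusted p = 0.00266). The urokinase receptor gene Plaur, named after its values were seen, was at -0.08 (SE 0.0808, adjusted p = 0.562) without and fell, at -0.21 (SE 0.0635, adjusted p = 0.0252) with fibronectin. Of the receptors of the members' proteins, 22 were tested, with 6 lower and 2 higher without fibronectin and 8 lower and 2 higher with it (median -0.12 and -0.15). This list also holds Plaur and Lrp1. Lrp5 fell, at -0.46 (SE 0.0555, adjusted p = 2.6e-04) and -0.42 (SE 0.0417, adjusted p = 1.6e-05), and syndecan-3 (Sdc3) at -0.51 (SE 0.0578, adjusted p = 1.9e-04) and -0.31 (SE 0.0895, adjusted p = 0.0221). Cd44, the hyaluronan and osteopontin receptor, rose by 0.27 (SE 0.0537, adjusted p = 0.00496) and 0.24 (SE 0.0478, adjusted p = 0.00254), and syndecan-4 (Sdc4) by 0.29 (SE 0.0762, adjusted p = 0.0214) and 0.30 (SE 0.0534, adjusted p = 0.00128). The integrin chain Itgb5 was at -0.24 (SE 0.0842, adjusted p = 0.0692) without fibronectin and fell with it, at -0.30 (SE 0.0519, adjusted p = 0.00107).

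**Figure D4:**
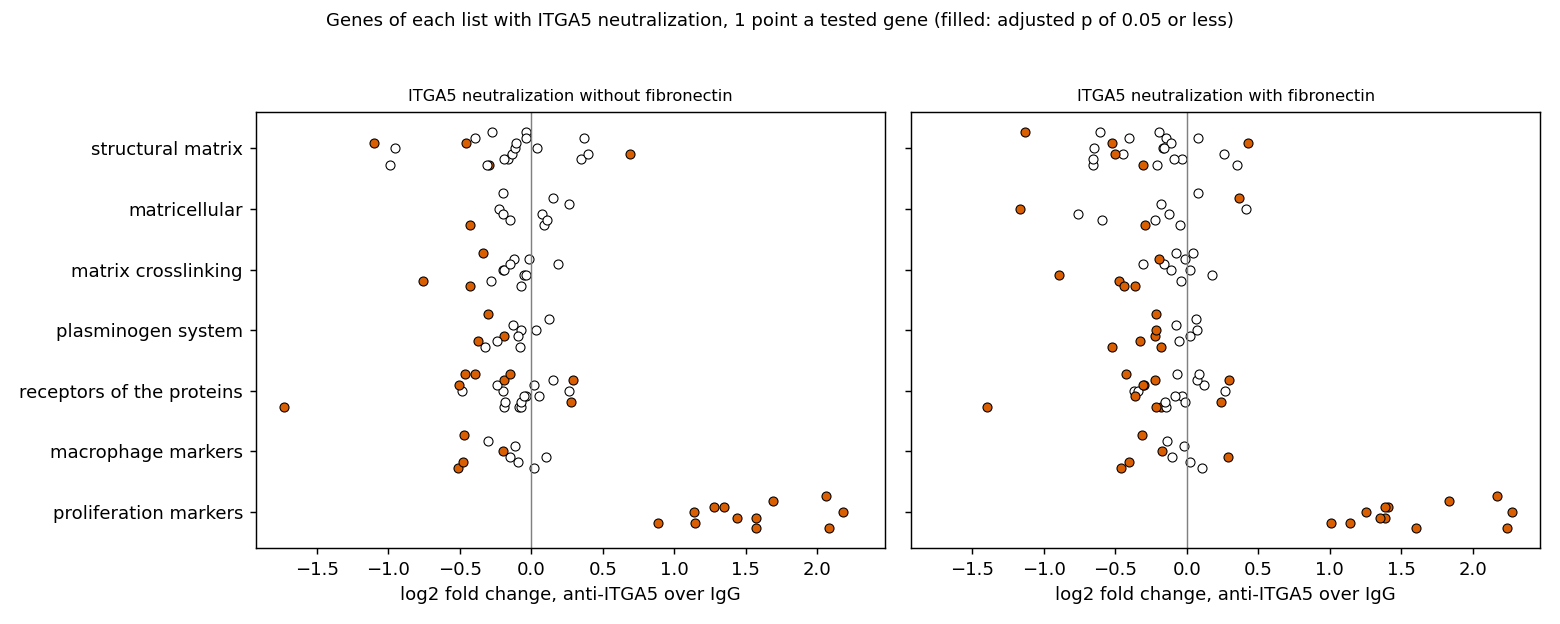
Log2 fold change with ITGA5 neutralization (horizontal axis) of the tested genes of 7 lists, 1 point a gene, filled where the adjusted p is 0.05 or less. The proliferation genes all lie at the right, while most filled points of the matrix, crosslinking and plasminogen lists lie below 0.

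Other genes moved with the antibody in the same libraries. All 12 proliferation genes rose on both surfaces (median log2 fold change 1.504 and 1.40), and their summed level was 134 to 186 FPKM in the IgG libraries and 369 to 515 FPKM in the anti-ITGA5 libraries. Cdc20 rose by 2.08 (SE 0.0648, adjusted p = 9.1e-08) and 2.24 (SE 0.153, adjusted p = 2.3e-06), Plk1 by 2.18 (SE 0.107, adjusted p = 2.0e-06) and 2.27 (SE 0.17, adjusted p = 2.7e-06), Aurka by 1.57 (SE 0.096, adjusted p = 5.3e-06) and 1.60 (SE 0.112, adjusted p = 2.4e-06), and Ccnb1 by 1.69 (SE 0.0902, adjusted p = 2.1e-06) and 1.83 (SE 0.132, adjusted p = 2.7e-06). Of 10 macrophage markers, 4 fell without fibronectin, and 4 fell and 1 rose with it, and their summed level was 10470 to 11330 FPKM in IgG and 7343 to 8979 FPKM in anti-ITGA5. Lyz2 held most of that sum and of its difference, at 7514 ± 429.9 FPKM in IgG and 5256 ± 631 FPKM in anti-ITGA5 without fibronectin, and 7809 ± 105 and 5691 ± 77.9 FPKM with it (SD, n = 3 each). Lyz2 changed by -0.51 (SE 0.0734, adjusted p = 7.9e-04) and -0.46 (SE 0.0348, adjusted p = 3.1e-06), Mertk by -0.48 (SE 0.0546, adjusted p = 1.9e-04) and -0.41 (SE 0.0533, adjusted p = 1.4e-04), Itgam by -0.47 (SE 0.0622, adjusted p = 4.6e-04) and -0.31 (SE 0.04, adjusted p = 1.1e-04), and Cd68 by -0.20 (SE 0.0509, adjusted p = 0.0184) and -0.17 (SE 0.0362, adjusted p = 0.00368). The mannose receptor Mrc1 was at 0.10 (SE 0.0728, adjusted p = 0.369) without fibronectin and rose by 0.29 (SE 0.0687, adjusted p = 0.00777) with it. The surface marker gene Adgre1 was at 0.02 (SE 0.0592, adjusted p = 0.866) and 0.10 (SE 0.0365, adjusted p = 0.0517), and the complement gene C1qa at -0.09 (SE 0.0718, adjusted p = 0.409) and 0.02 (SE 0.0541, adjusted p = 0.81). The part of these shifts in the members' changes was not tested. Of 10 fibroblast markers 2 were tested in each antibody comparison and 0 were called (Col1a1 and Col1a2, at 4 to 23 counts). For 8 endothelial markers 4 were tested, with 0 called without fibronectin and 1 lower with it (Vwf).

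Genes with the most similar pattern were sought among 11812 genes for the 3 members whose group means differed most, by Pearson's r of log2 CPM over the 12 libraries. This is a description, since the libraries share the antibody contrast and their scaling. For Thbs1 they were Dmxl2 (r = 0.959), Tmcc3 (0.956) and Abca1 (0.955). For Fn1 they were Gpr65 (0.932), Ddx21 (0.928) and Snhg1 (0.923), and for Ecm1 they were Msl1 (0.980), Grina (0.978) and Acbd3 (0.978).

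Promoters are shown for Ecm1, Emilin2 and Gpnmb, the called members that fell on both surfaces and have a RefSeq entry, and for Spp1, which rose on the coating in IgG. RefSeq promoters on GRCm38.p6 were found for 6 of 10 members, with a further start each for Spp1 and Emilin2. The window runs from 250 bases before the start to 30 bases from it on, 5′ to 3′ on the gene's strand, and capitals mark motifs found on either strand.
Ecm1, chr3:95739540-95739819, minus strand: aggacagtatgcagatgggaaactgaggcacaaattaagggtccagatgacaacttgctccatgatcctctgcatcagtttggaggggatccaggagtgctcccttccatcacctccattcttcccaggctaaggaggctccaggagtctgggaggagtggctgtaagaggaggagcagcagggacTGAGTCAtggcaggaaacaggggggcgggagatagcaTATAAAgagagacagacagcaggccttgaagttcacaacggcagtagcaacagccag
Emilin2, chr17:71310982-71311261, minus strand: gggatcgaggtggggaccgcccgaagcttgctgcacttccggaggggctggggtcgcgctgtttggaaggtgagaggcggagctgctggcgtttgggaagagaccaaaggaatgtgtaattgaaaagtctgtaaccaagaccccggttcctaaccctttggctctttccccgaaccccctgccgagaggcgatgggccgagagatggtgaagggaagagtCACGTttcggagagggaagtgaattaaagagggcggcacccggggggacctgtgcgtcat
Gpnmb, chr6:49036268-49036547, plus strand: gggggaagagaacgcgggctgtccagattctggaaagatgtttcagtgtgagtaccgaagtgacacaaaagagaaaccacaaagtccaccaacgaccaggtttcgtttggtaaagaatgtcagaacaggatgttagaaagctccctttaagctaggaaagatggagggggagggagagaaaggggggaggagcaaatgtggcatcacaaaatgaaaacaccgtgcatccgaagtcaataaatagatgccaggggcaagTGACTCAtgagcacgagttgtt
Spp1, chr5:104434861-104435140, plus strand: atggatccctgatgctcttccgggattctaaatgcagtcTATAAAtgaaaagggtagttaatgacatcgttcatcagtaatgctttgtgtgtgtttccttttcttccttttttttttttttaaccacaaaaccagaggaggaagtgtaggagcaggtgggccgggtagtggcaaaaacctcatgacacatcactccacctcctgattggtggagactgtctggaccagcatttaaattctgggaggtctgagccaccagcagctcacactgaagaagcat
The motifs searched were AP-1 (TGANTCA), bound by Fos and Jun proteins, the hypoxia response core (ACGTG or GCGTG), the antioxidant response core (TGACNNNGC), the E-box (CACGTG, which contains a hypoxia response core), the cyclic AMP response element (TGACGTCA) and the TATA box (TATAAA). Counting the start as 0, AP-1 matched at -64 to -58 in Ecm1 and at 8 to 14 in Gpnmb, and 7.46% of 32851 promoter windows of this length hold a match. A TATA box matched at -27 to -22 in Ecm1 and at -211 to -206 in Spp1 (13.1% of windows). The hypoxia response core matched at -30 to -26 in Emilin2 and at -90 to -86 in Tgfbi (41.8% of windows). The further starts of Emilin2 and Spp1, whose windows are not printed, held none of the motifs, nor did the window of Sparc. The antioxidant response core, the E-box and the cyclic AMP response element, in 11.5%, 6.79% and 1.74% of windows, matched in none of the members' windows. A match is a description and not a binding site.

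Some members share their span with other annotated genes of GENCODE M21. Fn1 overlaps Apol7d, Emilin2 overlaps Gm26561, and Thbs1 overlaps Gm29233, all on the opposite strand, with 0 to 3 counts in every library. Tgm2 overlaps Rprd1b and Gm20412 on the opposite strand, at 484 to 765 counts for Rprd1b and 0 for Gm20412. On the same strand, Spp1 overlaps Gm42793, at 53 to 115 counts, and Ecm1 overlaps Mir7014, at 0 counts. The strand setting of the counting is not given in the sources used here, so reads from overlapping genes could not be told apart, and the members' own counts were 38093 to 77982 for Spp1 and 4759 to 9457 for Tgm2. Whether Rprd1b reads took part in the small fall of Tgm2 on fibronectin was not tested.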

How the data were processed

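RNA-seq of 12 libraries of bone marrow macrophages was analysed, in 4 groups of 3. The authors deposited raw read counts for every gene and FPKM values, which equal the count over gene length and over a library total that differs from the summed counts. The submitters' processing notes name TopHat2 2.0.9, Cufflinks 2.1.1 and HTSeq 0.6.1 on mm10 (GRCm38.p6). The strand setting and the annotation release are not given in the sources used here. Counts were tested with edgeR 4.0.16 in R 4.3.3 by the quasi-likelihood test, after filterByExpr (minimum count 10, minimum total count 15) and TMM scaling. The Benjamini-Hochberg adjustment ran over all genes tested, with calls at 0.05 or less. Each pair of groups used its own 6 libraries and the interaction all 12. SE is the absolute log2 fold change over the root of F. The procedure was tested on simulated data. Alternatives were DESeq2 1.42.0, its size factors or total counts, other count filters, all libraries in one fit, a replicate block, limma 3.58.1 on log2 FPKM (pseudocount 1 or 0.1, mean FPKM of at least 0.5, and for pseudocount 1 also unfiltered), stricter thresholds and each library left out. The members and the 12 gene lists were chosen with earlier results of these data known. Named were all members, Itga5, Itgb1, up to 3 genes of each list with the smallest adjusted p in each antibody comparison, the genes most like 3 members, and others as stated. The lists held structural matrix, matricellular, crosslinking, plasminogen system, receptor, proliferation, macrophage, fibroblast, endothelial, neutrophil, megakaryocyte and osteoclast genes.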

Additional observations from a re-analysis of the deposited data

How the results depend on the processing

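Over 837 refits of the members' log2 fold changes, 733 kept their direction and their side of the threshold, 58 lost a call, 9 gained 1 and 37 changed sign. Of the 58 lost calls, 22 came with a library left out. No sign change touched a called result. For ITGA5 neutralization without fibronectin, the number of members called lower was 0 by unfiltered limma on log2(FPKM + 1), 1 with a log2 fold change of at least 0.5, 3 by DESeq2 and 3 to 4 with a library left out. The number called higher was 0 by each limma fit, 1 with an adjusted p of at most 0.01 and with a log2 fold change of at least 0.5, and 1 to 2 with a library left out. With fibronectin, the number called lower was 1 by unfiltered limma on log2(FPKM + 1) and 1 with a log2 fold change of at least 0.5, and 4 to 6 with a library left out. The number called higher was 1 with each limma fit, with an adjusted p of at most 0.01 and with a log2 fold change of at least 0.5, and 1 to 2 with a library left out. For fibronectin in IgG, the number called lower was 1 (Plau) with DESeq2, with every gene of at least 1 count and with the replicate block, and 0 to 1 with a library left out. The number called higher was 3 (Tgm2 added) with every gene of at least 1 count (adjusted p = 0.0221) and with the replicate block, 1 with all 12 libraries in one fit, 0 with each limma fit, with an adjusted p of at most 0.01 and with a log2 fold change of at least 0.5, and 0 to 3 with a library left out. The cause of these changes was not tested.

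Log2 fold changes that crossed 0 did so mostly with a library left out. Without fibronectin, Tgm2 upon neutralization ranged from -0.13 to 0.0041. With fibronectin, Sparc ranged from -0.78 to 0.041. For fibronectin in IgG, Fn1 ranged from -0.26 to 0.17 and Thbs1 from -0.20 to 0.13. For fibronectin in anti-ITGA5, Fn1 ranged from -0.25 to 0.0362, Thbs1 from -0.35 to 0.028, Sparc from -0.76 to 0.0868, Tgm2 from -0.0182 to 0.11 and Plau from -0.0490 to 0.0535. Plau there was also at 0.0059 with DESeq2, 0.0159 with every gene of at least 1 count, 0.01135 with limma on log2(FPKM + 1), filtered or not, and 0.01137 with limma on log2(FPKM + 0.1). The interaction ranged from -0.29 to 0.14 for Fn1, -0.0448 to 0.12 for Tgfbi, -0.032 to 0.0664 for Emilin2 and -0.27 to 0.10 for Thbs1.

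The groups share replicate numbers, but no label says that a number marks a shared animal or day. Over the genes that passed the filter on low counts, same-numbered libraries correlated at -0.02 to 0.149 in their deviations from the group means. Some members followed the number more closely. Thbs1 was above its group mean in 0 of 4 groups in replicate 1 and in 4 of 4 in replicate 3, and Plau the reverse. Fn1 was above it in 0 of 4 groups in replicate 2 and in 4 of 4 in replicate 3. With the replicate number as a block, genes called lower and higher were 1421 and 1547 without fibronectin (1265 and 1419 without the block), 2217 and 2321 with fibronectin (1699 and 1866), 133 and 283 for fibronectin in IgG (16 and 42) and 2 and 0 for fibronectin in anti-ITGA5 (0 and 0). Members called were 6, 9, 4 and 0, with Tgfbi gained with fibronectin (adjusted p = 0.0207) and Plau (8.5e-06) and Tgm2 (0.00491) gained for fibronectin in IgG. Of the list genes called without the block, 1 lost its call, the neutrophil marker Mpo with fibronectin (adjusted p = 0.0522). Other lists gained calls. Upon neutralization with fibronectin, genes called lower went from 4 to 7 for structural matrix, 8 to 10 for receptors and 4 to 6 for macrophage markers. Those of the crosslinking and plasminogen lists stayed at 5 and 6. For fibronectin in IgG, matricellular genes called higher and receptors called lower each went from 1 to 4. In 3 of the 4 comparisons every library correlated best with its own number, a hint from the data and not from the design. Depth limits Sparc most, at 11 to 34 counts a library.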

Other observations

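Markers of 3 other bone marrow lineages were counted in the same libraries. Of 8 osteoclast markers, 4 were tested without fibronectin, with 1 lower, and 5 with it, with 2 lower. Mmp9, a gelatinase, fell, with log2 fold changes of -1.90 (SE 0.139, adjusted p = 1.5e-05) and -1.32 (SE 0.0815, adjusted p = 1.2e-06) by edgeR, from 7.79 ± 0.456 FPKM in IgG to 2.05 ± 0.515 FPKM in anti-ITGA5 without fibronectin (SD, n = 3 each). Acp5 was at -0.35 (SE 0.276, adjusted p = 0.421) without fibronectin and fell with it, at -0.93 (SE 0.219, adjusted p = 0.00736), Ctsk did not pass on either surface, at -0.54 (SE 0.225, adjusted p = 0.118) and -0.50 (SE 0.208, adjusted p = 0.094), nor did Atp6v0d2, at 0.20 (SE 0.091, adjusted p = 0.144) and -0.04 (SE 0.133, adjusted p = 0.871). The summed level of the list was 16.5 to 23.9 FPKM in the IgG libraries and 10.8 to 16.5 FPKM in the anti-ITGA5 libraries. Of 8 megakaryocyte and platelet markers, 4 were tested in each antibody comparison, with 2 lower and 1 higher in both. The chemokine Pf4, which held most of the summed level of 362 to 699 FPKM, fell, at -0.38 (SE 0.107, adjusted p = 0.0307) and -0.33 (SE 0.0713, adjusted p = 0.00456), and Ppbp at -1.19 (SE 0.212, adjusted p = 0.00301) and -0.98 (SE 0.154, adjusted p = 5.2e-04). Gp1ba rose by 2.42 (SE 0.47, adjusted p = 0.00477) and 1.61 (SE 0.415, adjusted p = 0.0121) from 2 to 16 counts a library, and Gp1bb was at 0 in every library. Of 8 neutrophil markers, 1 was tested without fibronectin, with 0 called, and 2 with it, with 1 lower. That gene was Mpo, at 3 to 21 counts, with -0.94 (SE 0.329, adjusted p = 0.0498) by edgeR. S100a8 did not pass, at -0.15 (SE 0.316, adjusted p = 0.784) and -0.61 (SE 0.303, adjusted p = 0.156).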
